A study of Mus musculus with 6 samples.

Results

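The sugar and monocarboxylate transporters of the renal proximal tubule were examined as a group of 8 genes, *Slc5a1*, *Slc5a2*, *Slc5a8*, *Slc5a10*, *Slc5a12*, *Slc2a1*, *Slc2a2* and *Slc2a5*. The genes were chosen by name, and 8 of the 8 had a row among the 12125 genes of the deposited table. The proximal tubule is the first segment of the nephron after the glomerulus, and its cells take glucose, other sugars and lactate back from the filtrate. Carriers of the Slc5 family, in the brush border, use the sodium gradient to bring sugars or monocarboxylates into the cell, and carriers of the Slc2 family let sugars pass down their own gradient, mostly toward the blood. The early part of the tubule is known for the pair SGLT2 and GLUT2, and the late part for the pair SGLT1 and GLUT1.

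The cells came from the kidneys of 3 Trf1+/+ and 3 Trf1flox/flox mice, 1 library per mouse. All 6 mice carried the Col1a2-CreERT2 transgene, a tamoxifen-dependent Cre recombinase driven by the *Col1a2* promoter, and a Cre-activated reporter of Katushka fluorescent protein (KFP). Mice 6 to 8 weeks old at the start received tamoxifen 3 times a week for 8 weeks in both groups. The groups differ in the floxed allele of *Trf1*, the gene of a telomere-binding protein. The study used male and female mice, and the sex of each sequenced mouse is not given here. Cells were sorted after staining for CD29, an integrin, and KFP, and no source used here says that the sequenced cells bore both of these. RNA of 500 cells per library was copied from its poly(A) tail, amplified by PCR and sequenced, which asks how loss of *Trf1* in cells with *Col1a2* promoter activity changes their transcripts. Values are normalized counts, the reads of a gene divided by 1 size factor per library. Because each library is a pool of cells, fewer cells of a type and less RNA per cell cannot be told apart.

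The libraries held 10263382 to 12248797 reads on the listed genes, and 1 read was worth 0.689 to 1.09 normalized counts. A value that rests on 3 reads or fewer is called at the floor here, a limit that covers counting error only. *Terf1*, the symbol of the targeted gene, was at 0.891, 253 and 235 in Trf1+/+ replicates 1, 2 and 3, and at 110.0, 7.65 and 12.4 in Trf1flox/flox replicates 1, 2 and 3. The library labelled Trf1+/+ replicate 1, with 1 read, goes against its label, and each member is therefore also given without it. Of genes averaging 100 normalized counts or more in the other 5 libraries, 27.1% were at the floor in that library. A single read of *Terf1* there does not settle the genotype. Trf1flox/flox replicate 1, with 128 reads, had more of the transcript than the other Trf1flox/flox libraries, with 7 and 18, and less than Trf1+/+ replicates 2 and 3. In Trf1flox/flox replicate 2, 14.8% of genes averaging 100 normalized counts or more in the other 5 libraries were at the floor. The log2 fold change of *Terf1*, Trf1flox/flox minus Trf1+/+, was -1.04 (standard error 2.63, adjusted p = 0.985 from limma), and the groups overlapped. The library labelled Trf1+/+ replicate 1 also had the lowest median normalized count over the listed genes, 13.4 against 118 to 148 in the other 5. The label gives the cells as fibroblasts, but *Col1a2* had 0 to 2 reads in every library. Of 12 fibroblast markers 3 had a row, and their summed level was 3.44 to 186 normalized counts. The summed level of the 20 proximal tubule markers was 48639 to 228116, so the transporters are described here as part of a tubule signal.

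SGLT1, encoded by *Slc5a1* (ENSMUSG00000011034, chromosome 5, 33104219 to 33162870 of GRCm38, plus strand, 15 exon blocks), takes up the glucose that is left in the late proximal tubule, and also galactose. It was the member whose groups did not overlap. In Trf1+/+ replicates 1, 2 and 3 it had 0, 91.1 and 157 normalized counts, and in Trf1flox/flox replicates 1, 2 and 3 it had 249, 2192 and 455. All 3 Trf1flox/flox libraries lay above all 3 Trf1+/+ libraries, and Trf1flox/flox replicate 2 stood far above the other 5. The group means were 82.6 ± 78.7 and 965 ± 1067 (SD, n = 3 each). The log2 fold change, taken after adding 1 to each value, was 4.69 (standard error 1.97, 95% interval 0.38 to 9.0, unadjusted p = 0.0352, adjusted p = 0.970 from limma over 9966 genes). The change did not pass the test. Permuting the libraries exactly, two-sided, gave p = 0.1, and 3 libraries against 3 can give no smaller value. Among all genes tested 8.68% had groups that did not overlap, 5.35% with Trf1flox/flox higher, so 1 of 8 members is near the background. The share with Trf1flox/flox higher was 9.15%, and that with either direction 17.9%, when the library labelled Trf1+/+ replicate 1 was left out.

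Without the library labelled Trf1+/+ replicate 1 the log2 fold change of *Slc5a1* was 2.39 (standard error 1.00, adjusted p = 0.999 from limma), and the groups still did not overlap. Without Trf1flox/flox replicate 2 it was 3.79, and without both it was 1.49. With Trf1flox/flox replicate 1 left out it was 5.36. The count models on the recovered reads gave 3.43 in edgeR (adjusted p = 0.999) and 3.54 in DESeq2 (adjusted p = 0.564). When the libraries were rescaled to the same mean level of the proximal tubule markers the log2 fold change was 4.15 and the groups overlapped. The summed level of the 3 distal and connecting tubule markers did not overlap either and was lower in Trf1flox/flox libraries. It was 61903, 58062 and 38400 normalized counts in Trf1+/+ replicates 1, 2 and 3 and 31031, 17263 and 29381 in Trf1flox/flox replicates 1, 2 and 3, and the part of these markers in the result was not tested. Taken singly, *Slc12a3* and *Calb1* did not overlap either. The third marker, *Pvalb*, did overlap, with 1133 in Trf1+/+ replicate 3 against 1651 to 2722 in the Trf1flox/flox libraries.

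The 250 bases before the RefSeq start of *Slc5a1* (chr5:33103969-33104218, plus strand, RefSeq on GRCm38.p6) are shown because this was the member whose groups were apart. The capitals mark CACGTG, which holds the hypoxia response core ACGTG on both strands, 142 bases before the start. Of 32851 RefSeq promoter windows of 300 bases, 19.6% held ACGTG on either strand, so the match is a common one.
Slc5a1 upstream: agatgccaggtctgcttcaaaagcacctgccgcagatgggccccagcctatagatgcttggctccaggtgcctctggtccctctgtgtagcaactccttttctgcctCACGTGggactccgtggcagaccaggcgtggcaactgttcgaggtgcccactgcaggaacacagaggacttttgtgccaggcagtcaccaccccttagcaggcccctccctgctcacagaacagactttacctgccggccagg

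SGLT2, encoded by *Slc5a2* (ENSMUSG00000030781, chromosome 7, 128265657 to 128272430, plus strand, 14 exon blocks), reabsorbs most of the filtered glucose in the early tubule and is the target of the gliflozin drugs. Its values were 0, 6.63 and 582 normalized counts in Trf1+/+ replicates 1, 2 and 3 and 58.4, 1189 and 352 in Trf1flox/flox replicates 1, 2 and 3. Trf1+/+ replicate 3 lay above 2 of the Trf1flox/flox libraries, so the groups overlapped. Its log2 fold change was 4.15 (standard error 2.49, 95% interval -1.28 to 9.58, adjusted p = 0.970 from limma) and 2.13 without the library labelled Trf1+/+ replicate 1. The exons of *Slc5a2* share 597 bases with *BC017158* on the opposite strand, and the libraries are not stranded, so reads there cannot be told apart.

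The balance of the SGLT pair varied between libraries of the same genotype. Per kilobase of exon, the level of *Slc5a1* was 9.71 times that of *Slc5a2* in Trf1+/+ replicate 2 and 0.190 times in Trf1+/+ replicate 3. The first of these rests on 8 reads of *Slc5a2*. In Trf1flox/flox replicates 1, 2 and 3 this ratio of levels was 3.01, 1.30 and 0.912. The Trf1flox/flox ratios lay between those of the Trf1+/+ pair. With so few Trf1+/+ ratios, the spread of the ratio cannot be compared between the genotypes. In the library labelled Trf1+/+ replicate 1 both genes were at 0, and no ratio was taken.

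SGLT5, encoded by *Slc5a10* (ENSMUSG00000042371, chromosome 11, 61672781 to 61720826, minus strand, 16 exon blocks), carries mannose and fructose and is found mainly in the kidney. It had 9.80, 6.63 and 535 normalized counts in Trf1+/+ replicates 1, 2 and 3 and 137, 0 and 413 in Trf1flox/flox replicates 1, 2 and 3. Each group held 1 library above 300 and at least 1 below 10, so the groups overlapped over most of the range. On the log2 scale the change was 0.12 (standard error 2.87, 95% interval -6.15 to 6.40, adjusted p = 0.999 from limma), and without the library labelled Trf1+/+ replicate 1 it was -0.73. *Slc5a10* was the member at 0 in Trf1flox/flox replicate 2, the library where *Slc5a1* and *Slc5a2* had their highest values. Its exons share 393 bases with *Fam83g* and 4 with *Grap* on the opposite strand.

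The sodium-coupled monocarboxylate transporters take lactate, pyruvate and ketone bodies from the filtrate. SMCT2, the low-affinity carrier of the early tubule encoded by *Slc5a12* (ENSMUSG00000041644, chromosome 2, 110597298 to 110647779, plus strand, 17 exon blocks), was the member above the floor in all 6 libraries. It had 73.9, 119 and 1828 normalized counts in Trf1+/+ replicates 1, 2 and 3 and 252, 895 and 561 in Trf1flox/flox replicates 1, 2 and 3. The Trf1+/+ libraries held both its lowest and its highest values. Its log2 fold change was 0.98 (standard error 1.18, 95% interval -1.58 to 3.55, adjusted p = 0.970 from limma) and 0.10 without the library labelled Trf1+/+ replicate 1, and it was negative in edgeR (-0.29) and DESeq2 (-0.25). SMCT1, the high-affinity carrier of the late tubule encoded by *Slc5a8* (ENSMUSG00000020062, chromosome 10, 88885992 to 88929515, plus strand, 15 exon blocks), had 1.78, 138 and 1352 normalized counts and 749, 447 and 1136 in the same order. Trf1+/+ replicate 3 lay above all 3 Trf1flox/flox libraries and the other Trf1+/+ libraries lay below them. The change on the log2 scale was 3.17 (standard error 1.79, 95% interval -0.74 to 7.08, adjusted p = 0.970 from limma) and 0.75 without the library labelled Trf1+/+ replicate 1. Per kilobase, the level of *Slc5a8* was 0.878 and 0.563 times that of *Slc5a12* in Trf1+/+ replicates 2 and 3 and 2.27, 0.380 and 1.54 times in Trf1flox/flox replicates 1, 2 and 3. In the library labelled Trf1+/+ replicate 1 the levels per kilobase were 0.334 and 18.2, with *Slc5a8* at the floor. *Slc5a12* was thus the higher of the pair in all 3 Trf1+/+ libraries and in Trf1flox/flox replicate 2.

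**Figure D1:**
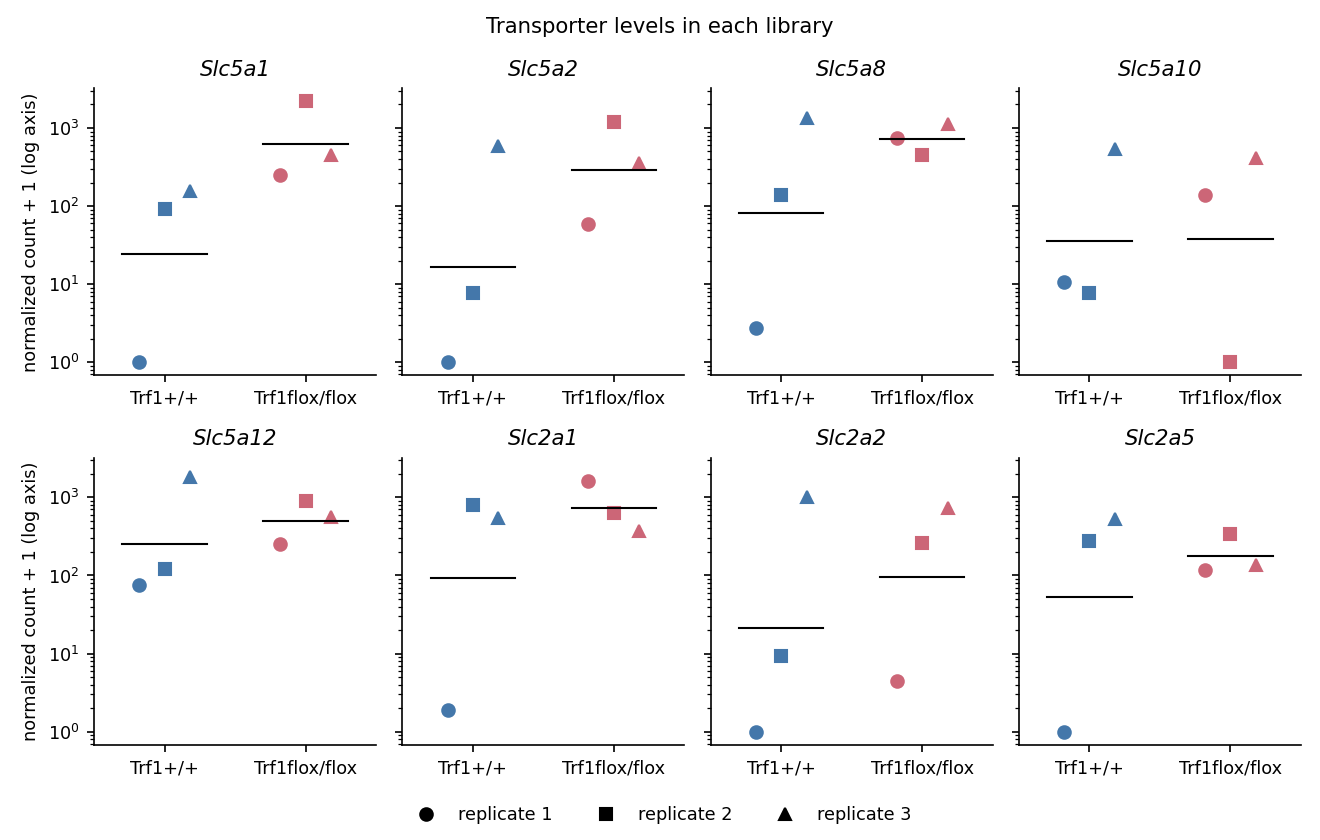
Normalized count plus 1 (log axis) of each of the 8 transporters in the 3 Trf1+/+ (blue) and 3 Trf1flox/flox (red) libraries, with a marker shape per replicate and a line at the mean of the log values. *Slc5a1* is the gene whose red points all lie above the blue points, and the blue circle, the library labelled Trf1+/+ replicate 1, is the lowest point in all panels but that of *Slc5a10*.

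GLUT1, encoded by *Slc2a1* (ENSMUSG00000028645, chromosome 4, 119108711 to 119137983, plus strand, 12 exon blocks), is the widely expressed basal glucose carrier, which in the kidney serves the late proximal tubule and later nephron segments. It had 0.891, 787 and 536 normalized counts in Trf1+/+ replicates 1, 2 and 3 and 1623, 637 and 369 in Trf1flox/flox replicates 1, 2 and 3. Apart from the library labelled Trf1+/+ replicate 1, where it had 1 read, the 5 libraries lay between 369 and 1623 and the groups overlapped. The log2 fold change was 2.97 (standard error 1.90, 95% interval -1.18 to 7.11, adjusted p = 0.970 from limma) with that library and 0.16 (standard error 0.70) without it. The exons of *Slc2a1* share 105 bases with *Gm12868* on the opposite strand.

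GLUT2, encoded by *Slc2a2* (ENSMUSG00000027690, chromosome 3, 28697903 to 28731359, plus strand, 11 exon blocks), is the low-affinity carrier by which glucose leaves the early tubule cell. It had 0, 8.29 and 1015 normalized counts in Trf1+/+ replicates 1, 2 and 3 and 3.44, 259 and 738 in Trf1flox/flox replicates 1, 2 and 3. Each genotype held at least 1 library below 10 and 1 above 300. The log2 fold change was 2.17 (standard error 2.98, 95% interval -4.34 to 8.67, adjusted p = 0.980 from limma) and -0.03 without the library labelled Trf1+/+ replicate 1.

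GLUT1 and GLUT2 were unevenly matched across the libraries. Per kilobase, the level of *Slc2a1* was 156 times that of *Slc2a2* in Trf1+/+ replicate 2 and 775 times in Trf1flox/flox replicate 1. *Slc2a2* had 10 and 4 reads in these libraries, close to the floor, so the size of both ratios is uncertain. In Trf1+/+ replicate 3 and Trf1flox/flox replicates 2 and 3 the same ratio was 0.867, 4.04 and 0.820. Both libraries with a high ratio had the lowest sums of proximal tubule markers, 48639 and 55834 normalized counts against 154972 to 228116 in the others. They also had the highest sums of the 4 loop of Henle markers, 63708 and 109972 against 26821 to 49718. The part of this nephron make-up in the ratio was not tested.

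The upstream sequences of this pair are shown because the levels of *Slc2a1* and *Slc2a2* came apart in this way. They cover the 250 bases before the RefSeq start (chr4:119108495-119108744 and chr3:28697653-28697902, both plus strand, RefSeq on GRCm38.p6), and the capitals mark motif matches. *Slc2a1* holds the hypoxia response core ACGTG 36 bases before the start and a pair of GC boxes (GGGCGG, read as CCGCCC on the plus strand) 45 and 20 bases before it. *Slc2a2* holds AGGTCA, a word bound by the tubule factor HNF4, 21 bases before its start. Over the full window of 300 bases the GC content was 65.3% for *Slc2a1* and 48.0% for *Slc2a2*. Of the 32851 windows, 35.7% held GGGCGG and 16.3% held AGGTCA on either strand. The word GTTAAT of the factor HNF1, found in 7.10% of windows, was in neither of these windows, and TATAAA, found in 13.6%, was in that of *Slc2a1*, 28 bases after the start. Of the 8 members, 6 had a promoter entry, and *Slc5a2* and *Slc5a12* did not.
Slc2a1 upstream: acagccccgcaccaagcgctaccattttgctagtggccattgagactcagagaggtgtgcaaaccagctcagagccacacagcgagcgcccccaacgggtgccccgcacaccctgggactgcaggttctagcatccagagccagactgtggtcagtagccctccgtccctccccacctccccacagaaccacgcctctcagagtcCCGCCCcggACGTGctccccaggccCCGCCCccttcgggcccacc
Slc2a2 upstream: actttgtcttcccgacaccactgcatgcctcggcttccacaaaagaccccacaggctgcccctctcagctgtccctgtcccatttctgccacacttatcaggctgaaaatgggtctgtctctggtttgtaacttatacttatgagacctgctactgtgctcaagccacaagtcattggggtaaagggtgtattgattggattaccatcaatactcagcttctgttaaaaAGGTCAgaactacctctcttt

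GLUT5, encoded by *Slc2a5* (ENSMUSG00000028976, chromosome 4, 150119283 to 150144169, plus strand, 14 exon blocks), is a fructose carrier of the apical membrane. It had 0, 275 and 532 normalized counts in Trf1+/+ replicates 1, 2 and 3 and 118, 337 and 135 in Trf1flox/flox replicates 1, 2 and 3. The Trf1flox/flox values lay within the range of the Trf1+/+ values. Its log2 fold change was 1.74 (standard error 2.28, 95% interval -3.24 to 6.71, adjusted p = 0.976 from limma) and turned to -1.12 (standard error 0.93) without the library labelled Trf1+/+ replicate 1.

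Taken over the 8 members, all of which passed the filter of 10 normalized counts in at least 3 libraries, 8 had a log2 fold change above 0 and 0 were called at an adjusted p under 0.05 in limma, edgeR or DESeq2. An unadjusted p under 0.05 was reached by 1 member, *Slc5a1*, in limma and in DESeq2, and by 0 members in edgeR. Over all 9966 genes tested limma called 0.0%, edgeR 0.0% and DESeq2 0.582%, and 3.13% had an unadjusted p under 0.05 in limma, 1.97% in edgeR and 4.11% in DESeq2. Of all genes 55.9% were above 0 in limma, and 48.3% in both edgeR and DESeq2, which put 6 and 4 of the 8 members above 0. The median of the members was 2.57 against 0.20 over all genes. Without the library labelled Trf1+/+ replicate 1, 5 of the 8 were above 0 against 48.9% of all genes, and the medians were 0.13 and -0.03.

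In that library 6 of the 8 members were at the floor, and 4 of them, *Slc5a1*, *Slc5a2*, *Slc2a2* and *Slc2a5*, were at 0. Among the 3360 genes whose mean in the other libraries lay within the range of the members, 21.8% were at the floor there. In Trf1flox/flox replicate 2 the same share was 14.0%, and 1 member was at the floor. In the other 4 libraries the share was 1.39% to 7.81% and 0 members were at the floor. The summed level of the members was 86.4 normalized counts in the library labelled Trf1+/+ replicate 1, which was 0.0428% of the sum of the proximal tubule markers, while it was 1.82% to 5.71% of that sum in the other 5 libraries. Of the 20 proximal tubule markers 1 was at the floor in that library, *Slc22a8*, an organic anion carrier, with 0.891 normalized counts against 477 to 1265 in the other 5. The others on the list were above the floor there. In Trf1flox/flox replicate 1, where the sum of the members was 5.71% of the marker sum, *Slc2a1* held 1623 of their 3189 normalized counts.

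**Figure D2:**
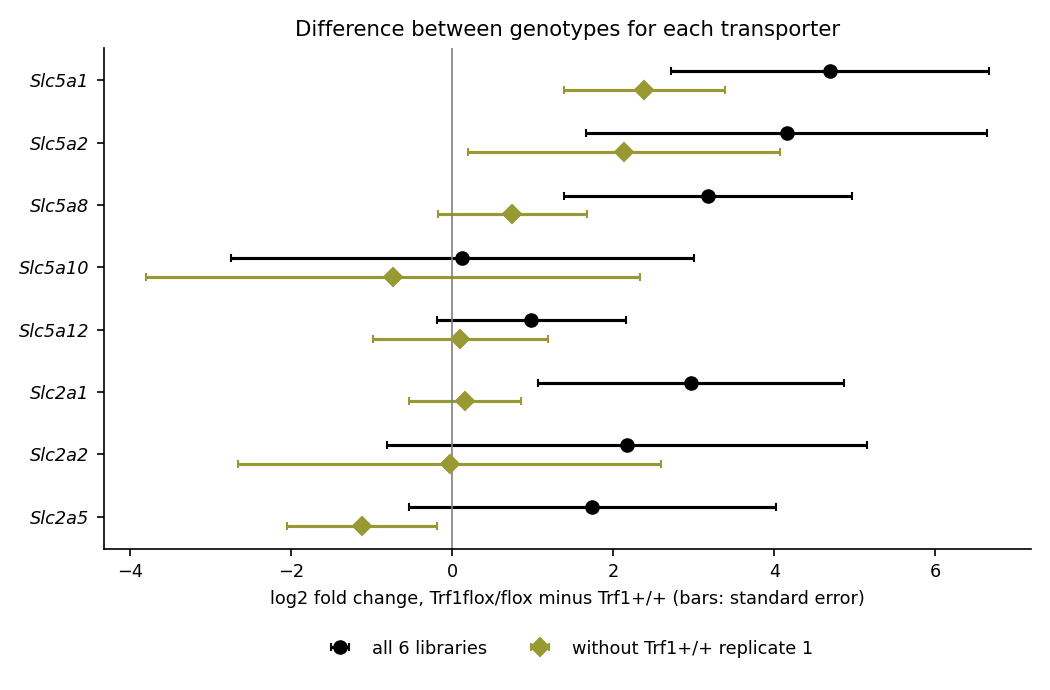
Log2 fold change of each transporter, Trf1flox/flox minus Trf1+/+, with its standard error from limma, in all 6 libraries (black circles) and without the library labelled Trf1+/+ replicate 1 (olive diamonds). Leaving that library out lowers all 8 values, from 4.69 to 2.39 for *Slc5a1*, and puts *Slc5a10*, *Slc2a2* and *Slc2a5* below 0.

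Levels of different genes were compared per kilobase of exon. The means over 6 libraries, with both genotypes together, were 188 ± 155 (SD) normalized counts per kilobase for *Slc2a1*, 153 ± 164 for *Slc5a12*, 128 ± 203 for *Slc5a1* and 126 ± 161 for *Slc5a2*. Lower means were found for *Slc5a8* with 120 ± 101 (SD), *Slc5a10* with 77.6 ± 98.9, *Slc2a5* with 68.4 ± 55.6 and *Slc2a2* with 58.6 ± 76.1. The gap between neighbours in this order was 1.77 to 42.0, less than the SD of either neighbour in each of the 7 pairs, so the order is not fixed by these libraries.

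A different member led from one library to the next. *Slc2a1* led in Trf1+/+ replicate 2 and Trf1flox/flox replicate 1, where it made up 57.7% and 55.2% of the summed level per kilobase. In Trf1+/+ replicate 3 and Trf1flox/flox replicates 2 and 3 its share was 9.24%, 11.5% and 10.2%. *Slc5a12* led in Trf1+/+ replicate 3 with 27.2% of the summed level, *Slc5a1* in Trf1flox/flox replicate 2 with 33.9% and *Slc5a8* in Trf1flox/flox replicate 3 with 20.7%. No member led in all libraries of a genotype. The 79.4% of *Slc5a12* in the library labelled Trf1+/+ replicate 1 rests on a summed level of 22.9, against 389 to 1655 elsewhere.

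**Figure D3:**
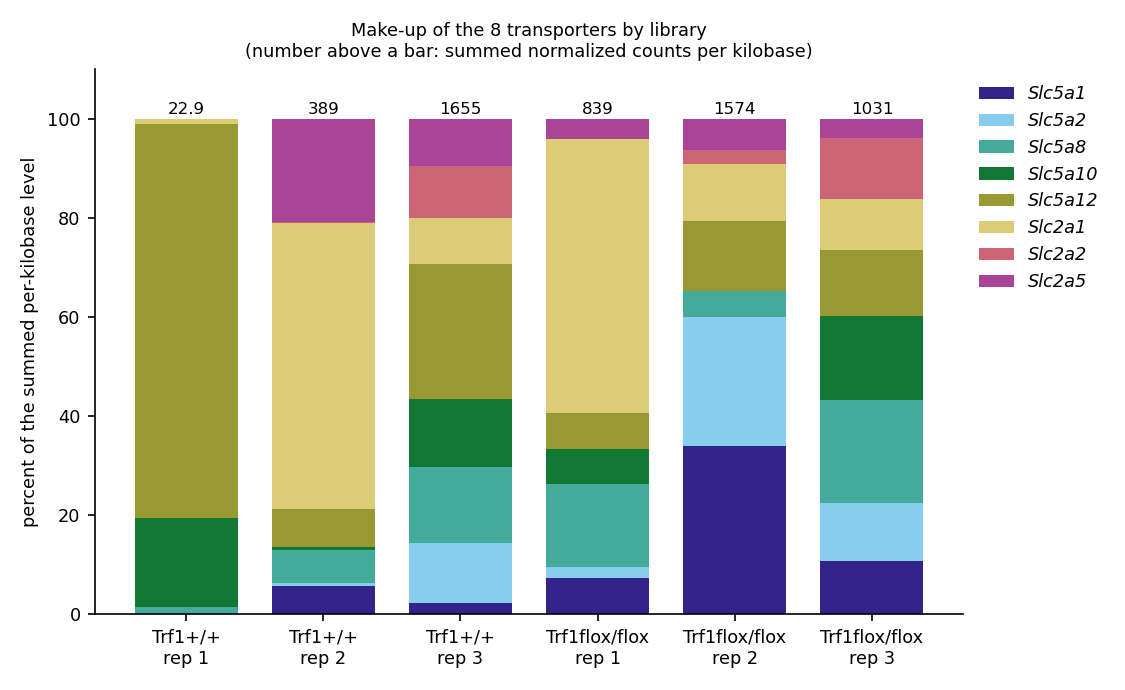
Share of each transporter in the summed level per kilobase of exon, in percent, for each of the 6 libraries, with the summed level above each bar. *Slc2a1* takes over 50% in Trf1+/+ replicate 2 and Trf1flox/flox replicate 1, and the other libraries differ from these and from each other.

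The markers of the nephron segments also varied from library to library. The 20 of 20 proximal tubule markers that could be analysed summed to 201734, 48639 and 192801 normalized counts in Trf1+/+ replicates 1, 2 and 3 and to 55834, 154972 and 228116 in Trf1flox/flox replicates 1, 2 and 3. No marker of this list was at 0 in any library. The 6 collecting duct markers ranged from 592 to 9300 in Trf1+/+ and from 1336 to 17764 in Trf1flox/flox libraries, and *Aqp2*, the water channel that defines principal cells, was at 0 in 3 of the 6 libraries. The 5 erythroid markers ranged from 238 to 10472 in Trf1+/+ and from 121 to 52403 in Trf1flox/flox libraries. Of the 5 podocyte markers 0 had a row, of the 6 endothelial markers 1 and of the 8 leukocyte markers 4. The filter was passed by 0 of the endothelial and 1 of the leukocyte markers. Apart from the distal and connecting tubule list, the sums of these lists overlapped between the genotypes.

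**Figure D4:**
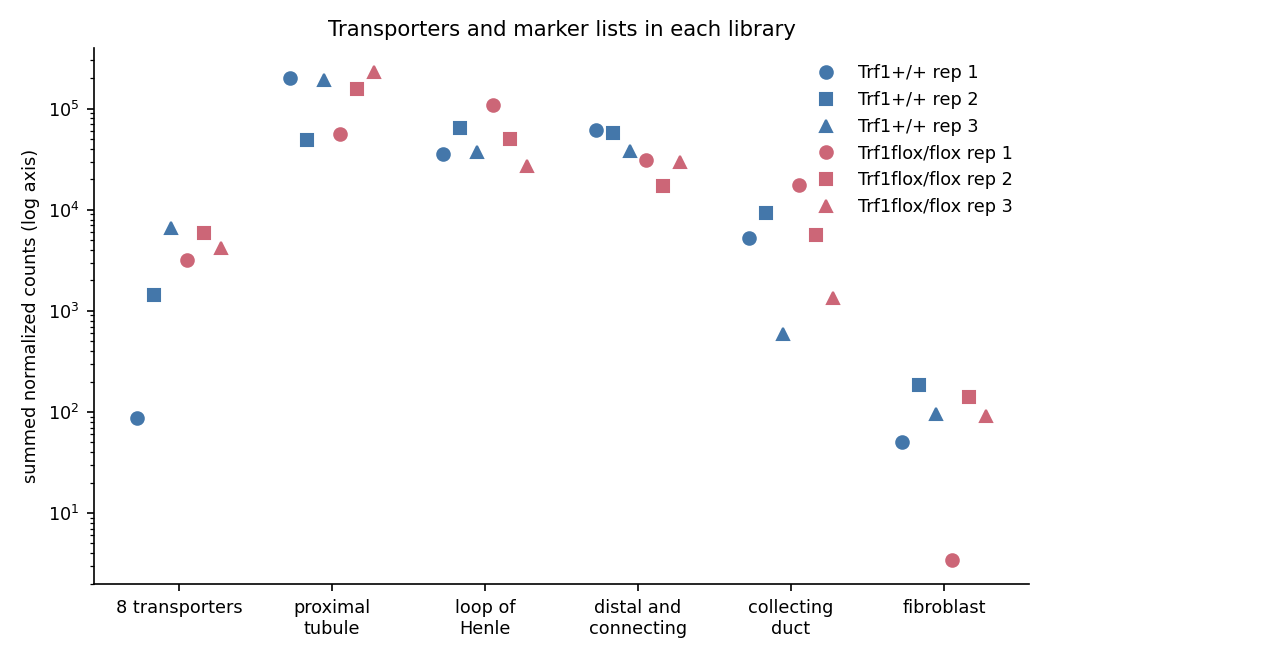
Summed normalized counts (log axis) of the 8 transporters and of marker lists of 4 tubule segments and of fibroblasts in each library, Trf1+/+ in blue and Trf1flox/flox in red, with a marker shape per replicate. The library labelled Trf1+/+ replicate 1 has 86.4 normalized counts of the transporters beside 201734 of proximal tubule markers, and the distal and connecting tubule sums are the ones that do not overlap between genotypes.

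The remaining genes of sugar and lactate handling were read from lists drawn up by pathway, and 0 of their genes were called by limma, edgeR or DESeq2. Among the other Slc5 genes, 4 of 8 could be analysed, 2 higher and 2 lower in Trf1flox/flox libraries, with a median log2 fold change of -0.58. *Slc5a3*, a carrier of the osmolyte inositol, had 207, 2671 and 2600 normalized counts in Trf1+/+ replicates 1, 2 and 3 and 4376, 1402 and 1203 in Trf1flox/flox replicates 1, 2 and 3, and the groups overlapped. The log2 fold change of *Slc5a6*, a carrier of biotin and pantothenate, was 2.57 with a standard error of 2.47, and that of *Slc5a9*, the mannose carrier SGLT4, was -2.77 with a standard error of 2.45. Among the other Slc2 genes, 3 were tested and 3 were higher, with a median of 1.91. *Slc2a4*, the insulin-responsive GLUT4, had 1.78, 717 and 1.97 normalized counts in Trf1+/+ replicates 1, 2 and 3 and 533, 490 and 174 in Trf1flox/flox replicates 1, 2 and 3, so its highest value was in a Trf1+/+ library. For *Slc2a8*, an intracellular carrier, the difference was 1.91 on the log2 scale, with a standard error of 2.63.

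The Slc16 family carries monocarboxylates without sodium, in part with the chaperones basigin and embigin. Of 13 tested genes of this list 9 were higher and 4 lower, with a median log2 fold change of 1.43 that was 0.052 in edgeR and -0.0037 in DESeq2. *Slc16a7*, which encodes the lactate and pyruvate carrier MCT2, had 13217, 5783 and 4411 normalized counts in Trf1+/+ replicates 1, 2 and 3 and 6153, 1928 and 2549 in Trf1flox/flox replicates 1, 2 and 3. Its log2 fold change was -1.16 (standard error 0.55, 95% interval -2.36 to 0.04, adjusted p = 0.970 from limma), and the groups overlapped through Trf1flox/flox replicate 1. *Bsg*, which encodes basigin, lay between 4226 and 7865 in all 6 libraries and differed by -0.11 on the log2 scale (standard error 0.42). *Emb*, which encodes embigin, differed by -0.99 (standard error 0.60) and *Slc16a11* by 4.25 (standard error 2.41) on that scale.

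Among partners and regulators of these carriers 8 of 10 tested genes were higher and 2 lower, with a median log2 fold change of 0.81. *Sgk1*, the serum- and glucocorticoid-induced kinase that raises the activity of several sodium carriers, had groups that did not overlap. *Sgk1* was the 1 such gene of the 10, and 8.68% of all genes tested had groups that did not overlap. It had 2.67, 0.829 and 61.1 normalized counts in Trf1+/+ replicates 1, 2 and 3 and 140.1, 711 and 131 in Trf1flox/flox replicates 1, 2 and 3. Trf1+/+ replicates 1 and 2, with 3 reads and 1 read, were at the floor. Trf1flox/flox replicate 2 was the highest library for *Sgk1*, as it was for *Slc5a1*, and a link between the genes was not tested. The log2 fold change was 4.99 (standard error 2.32, adjusted p = 0.970 from limma) and 4.47 without the library labelled Trf1+/+ replicate 1, and the change did not pass the test. On the log2 scale *Nedd4l*, a ubiquitin ligase of membrane carriers, differed by 2.35 (standard error 1.15). *Pdzk1ip1*, which encodes MAP17, the partner of SGLT2, differed by 0.62 (standard error 0.59), *Pdzk1*, a scaffold of brush border carriers, by -0.37 (standard error 0.55) and *Txnip*, which promotes the removal of glucose carriers from the membrane, by -0.19 (standard error 0.69).

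The sodium pump, which keeps up the gradient that the Slc5 carriers use, varied little beside its clients. *Atp1b1*, which encodes a beta subunit, had 18777, 21676 and 14061 normalized counts in Trf1+/+ replicates 1, 2 and 3 and 20907, 13687 and 11549 in Trf1flox/flox replicates 1, 2 and 3, a difference of -0.26 on the log2 scale (standard error 0.39). *Fxyd2*, which encodes a regulatory subunit, differed by -0.25 (standard error 0.46). The standard errors of the 8 transporters were 1.18 to 2.98, against a median of 1.93 over all genes.

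Enzymes that use the transported sugars and lactate were abundant in most libraries. Of 14 tested genes 9 were higher and 5 lower, with a median log2 fold change of 0.20, that of all genes. The fructose genes *Khk*, *Tkfc* and *Sord* had log2 fold changes of 0.04, 0.87 and 0.25, the lactate dehydrogenases *Ldha*, *Ldhb* and *Ldhd* 0.53, -0.46 and -0.91, and *Pck1* and *Fbp1* of gluconeogenesis 0.50 and -0.38, each smaller than 2 of its standard errors. *Slc37a4*, which brings glucose 6-phosphate into the endoplasmic reticulum, had 1.78 normalized counts in the library labelled Trf1+/+ replicate 1 and 570 to 2941 in the other 5, and its log2 fold change of 3.14 was 0.18 without that library. With that library left out, the median log2 fold change was -1.20 for the other Slc5 genes, 0.44 for the other Slc2 genes, 0.57 for the Slc16 list, 0.60 for the partners and regulators, -0.04 for the sodium pump and 0.21 for the enzymes. Of the genes named from these lists, *Slc5a3* then turned to -0.44, *Bsg* to 0.06, *Pdzk1ip1* to -0.05, *Txnip* to 0.36, and *Fxyd2* to 0.03, each smaller than its standard error. Log2 fold changes that kept their sign but became smaller by over 1.5 times were those of *Slc5a6* (0.45), *Slc2a8* (0.10), *Slc16a7* (-0.70), *Pdzk1* (-0.12), *Nedd4l* (1.27), *Ldhb* (-0.09), *Ldhd* (-0.18), *Fbp1* (-0.04) and *Slc37a4*. Those of *Khk* (0.24), *Tkfc* (1.64), *Sord* (0.46) and *Pck1* (1.03) became larger by over 1.5 times.

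The genes most like each member were sought by Pearson correlation of log2(value + 1) over the 6 libraries, among 7175 tested genes that averaged 100 normalized counts or more. The values are a description of 6 libraries that differ in depth and make-up. For *Slc5a1* the first was *Jak1*, a cytokine receptor kinase, with r = 0.997, and 482 genes had an r above 0.9. *Slc2a2* was followed most closely by *Inpp5f*, *Sucnr1* and *Olfm4* (r = 0.99 each), and 60 genes had an r above 0.9. For *Slc5a12* they were *Fut9*, *Tcn2* and *Sc5d* (r = 0.97 each, 69 genes above 0.9), and for *Slc5a10* *Mthfs*, *Frmd4b* and *Tatdn1* (r = 0.97, 0.97 and 0.96, 41 genes above 0.9). *Slc5a2* was most like *Pyroxd2*, *Mtg2* and *Ppp2r5e* (214 genes above 0.9) and *Slc5a8* most like *Susd6*, *Abca3* and *Galnt11* (537 genes). *Slc2a1* was most like *Cd82*, *Arglu1* and *Zfp292* (850 genes) and *Slc2a5* most like *Hdac3*, *Cpsf3* and *AU040320* (772 genes). All these counts include the library labelled Trf1+/+ replicate 1, where *Slc2a1* had 1 read and *Slc2a5* 0. The r of *Slc2a1* with *Slc2a5* was 0.934 with that library and -0.329 without it. Without it, *Slc2a1* with *Cd82* had r = 0.991 and *Slc2a5* with *Hdac3* r = 0.977. With the mean log2 level of the proximal tubule markers *Slc2a1* had r = -0.045, and -0.699 without that library. With that of the loop of Henle markers its r was 0.853, and 0.935 without that library. Every other member had a positive r with the proximal tubule markers, with and without that library. After the 2 libraries farthest from the median of *Slc5a1* were left out, its r with *Jak1* was 0.93.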

How the data were processed

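RNA of 500 sorted kidney cells per mouse was sequenced from 3 Trf1+/+ and 3 Trf1flox/flox mice. Reads were aligned by the authors with TopHat 2.0.10 and counted on genes with HTSeq 0.6.1. The methods name GRCm38 with GENCODE M20 and the submitters' processing notes name GRCm39. The libraries are not stranded, and the strand setting of the counting is not given in the sources used here. The authors deposited size-factor-normalized counts, a signal per gene, for 12125 genes. Whole reads were recovered from the deposited values for 100% of them (tolerance 0.001 of a read), giving 10263382 to 12248797 reads per library. Groups were taken from the genotype labels, and replicate numbers follow the order of the samples.

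Here log2(normalized count + 1) was fitted with limma 3.58.1 (trended variance) for the 9966 genes that reached 10 normalized counts in 3 or more libraries, with Benjamini-Hochberg adjustment and a threshold of 0.05. The recovered reads were also fitted with edgeR 4.0.16 and DESeq2 1.42.0. All fits were run on simulated data as a check of the code, with less spread between replicates than these libraries have. The median SD within a group was 2.17 here on the log2 scale, so that check cannot show how the fits perform at this spread. Exact permutation tests were two-sided over 20 splits. Positions and exon lengths were taken from GENCODE M21 on GRCm38, and promoter windows from RefSeq on GRCm38.p6. Beside the members, the text names the 2 tested genes of each pathway list with the smallest p, list genes that averaged 1000 normalized counts or more, and the 3 genes most correlated with each member. The members and lists were chosen with earlier results of these data known, and the motifs after the values were seen, and nothing here is independent support. p-values measure the spread between these 6 libraries. With 1 library per mouse, differences between mice cannot be told from those of sorting and amplification. Some genes that this rule names are not reported here.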

Additional observations from a re-analysis of the deposited data

How the results depend on the processing

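Each member was refitted under 16 alternatives, 2 of them, the rescaling to proximal tubule markers and the removal of both the library labelled Trf1+/+ replicate 1 and Trf1flox/flox replicate 2, chosen after seeing the data. Of 128 log2 fold changes 110 kept the direction and 18 turned, none passed the threshold (smallest adjusted p 0.564, *Slc5a1* in DESeq2), and *Slc5a1*, *Slc5a2*, *Slc5a8* and *Slc2a1* were above 0 under all 16. The turned values were, for *Slc5a10*, -0.16 with a pseudocount of 0.5, -0.0027 in DESeq2, -0.27 with the marker rescaling, and between -1.59 and 2.76 with 1 library left out (below 0 without Trf1+/+ replicate 1, -0.73, or 2, -0.98, and without Trf1flox/flox replicate 1, -0.80, or 3, -1.59). For *Slc5a12* they were -0.29 in edgeR, -0.25 in DESeq2 and -0.32 without both libraries. For *Slc2a2* they were -0.032 in DESeq2, -0.76 without both and -0.035 to 4.96 with 1 library left out (lowest without the library labelled Trf1+/+ replicate 1). For *Slc2a5* they were -0.54 in edgeR, -0.46 in DESeq2, -0.33 with array weights, -1.59 without both and -1.12 to 3.41 with 1 library left out (lowest without the library labelled Trf1+/+ replicate 1). The cause was not tested.

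DESeq2 called 58 genes where limma and edgeR called 0. The members above 0 numbered 4 in DESeq2, 5 without both libraries and 5 to 8 with 1 library left out. The members whose groups did not overlap numbered 0 with the marker rescaling, 2 without both libraries and 1 to 4 with 1 library left out, the 4 without Trf1+/+ replicate 3. Over all genes the same count was 865, 517 with the marker rescaling, 2932 without both and 1517 to 2431 with 1 left out, where fewer libraries need to be apart. The median log2 fold change of the Slc16 list was 0.052 in edgeR, -0.0037 in DESeq2 and 0.57 to 2.84 with 1 library left out (highest without Trf1+/+ replicate 3), and that of the sodium pump was -0.86 with the marker rescaling. Of 96 list medians 92 moved by less than the spread between replicates. The median of all genes was 0.20, and it was 0.44 with upper quartile scaling, 0.34 with total scaling, -0.04 in edgeR, -0.05 in DESeq2 and -0.38 with the marker rescaling. No paired analysis was possible because the labels give no replicate numbers and the numbers used here follow sample order. With 3 mice per group and standard errors of 1.18 to 2.98, differences of several fold could not be told from the spread.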
